A study of Mus musculus with 10 samples.

Results

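The genes described here are the interleukin-6 (IL-6) family of cytokines and the STAT3 pathway through which they act. They comprise the cytokine genes Il6, Il11, Lif and Osm, the receptor genes Il6ra, Il6st, Osmr and Lifr, the transcription factor gene Stat3, and Socs3, the gene of its feedback inhibitor. The genes were taken by name, and they are 10 of the 21959 genes in the expression table.

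The listed cytokines bind receptor chains such as those of Il6ra, Osmr and Lifr and signal through the shared chain encoded by Il6st. The JAK kinases bound to this chain phosphorylate STAT3. Phosphorylated STAT3 enters the nucleus and induces target genes, among them Socs3, whose protein inhibits the receptor-bound kinases and ends the signal. Contracting muscle secretes IL-6 during exercise, which makes it a myokine, and in mammary tumors these cytokines act between carcinoma cells, stromal cells and leukocytes.

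Tumors had been grown from 4T1 cells, an established mouse mammary carcinoma line that models the triple-negative form of breast cancer. The cells were injected under the skin of the abdomen, not into the mammary gland, of female BALB/c mice aged 5 to 6 weeks. For 21 days the mice of group E (exercise, 5 mice) ran in wheels by choice, at any pace and over any distance. The 5 mice of group NE (non-exercise) were housed as usual over those days. No transgene, deletion or drug was given for either group, and 1 bulk RNA library was sequenced per mouse. The question for the genes described was whether their transcripts in the tumor differed between E and NE, since phosphorylation of STAT3 and circulating cytokines were not analysed here.

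Expression was given as a read count and as FPKM, the count scaled by gene length and by the counted reads of the library. FPKM allow levels of different genes to be set side by side, as far as a single length per gene fits the transcripts present. The libraries held 15045613 to 20646763 counted reads in E and 18706032 to 23092251 in NE. The depth was lower in E (exact two-sided permutation test, p = 0.0317, n = 5 per group). The shallowest library was that of E5 (the letters name the group and the digit the replicate). No pair of libraries agreed within sampling noise, where the chi-square divided by its degrees of freedom was 8.85 or more for each of 45 pairs.

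The labelled tissue, mammary cancer tissue, was set beside 7 epithelial markers. Krt19 was the most abundant with a mean of 7.92 FPKM, followed by Cdh1 with 2.44 FPKM. Epcam had a mean of 0.580 FPKM, Cldn7 0.399, Krt18 0.431, Krt8 0.226 and Krt7 0.0510 FPKM, and 4 of the 7 markers passed the filter on low counts. Among the epithelial keratins, Krt7 was at 0.131 FPKM or less in every tumor, while Krt8 ranged from 0 reads in NE1 to 0.618 FPKM in E1 and Krt18 from 0.0603 FPKM in NE1 to 1.46 in NE4. Among the 4 markers tested, Epcam (log2 fold change -1.01, unadjusted p of 0.0252) and Krt19 (-0.65, unadjusted p of 0.00777) had lower values in E, where 2.29% of all genes tested did so at this p, and neither passed the FDR. Over the 10 fits that each left out 1 tumor, Krt19 kept an unadjusted p of at most 0.05 in 10 and Epcam in 6. The other 2 had estimates above 0, Cdh1 of 0.16 (unadjusted p of 0.652) and Cldn7 of 0.08 (unadjusted p of 0.815). The macrophage or monocyte gene Lyz2 had a mean of 1273 FPKM. In bulk tissue, fewer cells of a type and less RNA per cell cannot be told apart.

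All 10 members passed the filter on low counts, and none was called, where a call between E and NE needed an FDR no higher than 0.05 together with a fold change of 2 or more. The background was the same, since 0 of 13517 genes tested (0%) were called by edgeR's quasi-likelihood test and the smallest FDR was 0.897. DESeq2 also called 0 genes at both thresholds, and at an FDR of at most 0.05 alone it listed 3 genes, none of them a member. At an unadjusted p of at most 0.05, edgeR listed 657 genes (4.86%) and DESeq2 800. Of the members, 2 of 10 were at or below this p, Osm and Socs3, both with higher values in E, where 347 genes (2.57% of those tested) did so. For 0 of 10 members did the values of E and NE separate without overlap, against 98 genes (0.725%). The median log2 fold change of the 10 members was 0.05, beside -0.01 for all genes tested, and 6 members had an estimate above 0 and 4 below.

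**Figure D1:**
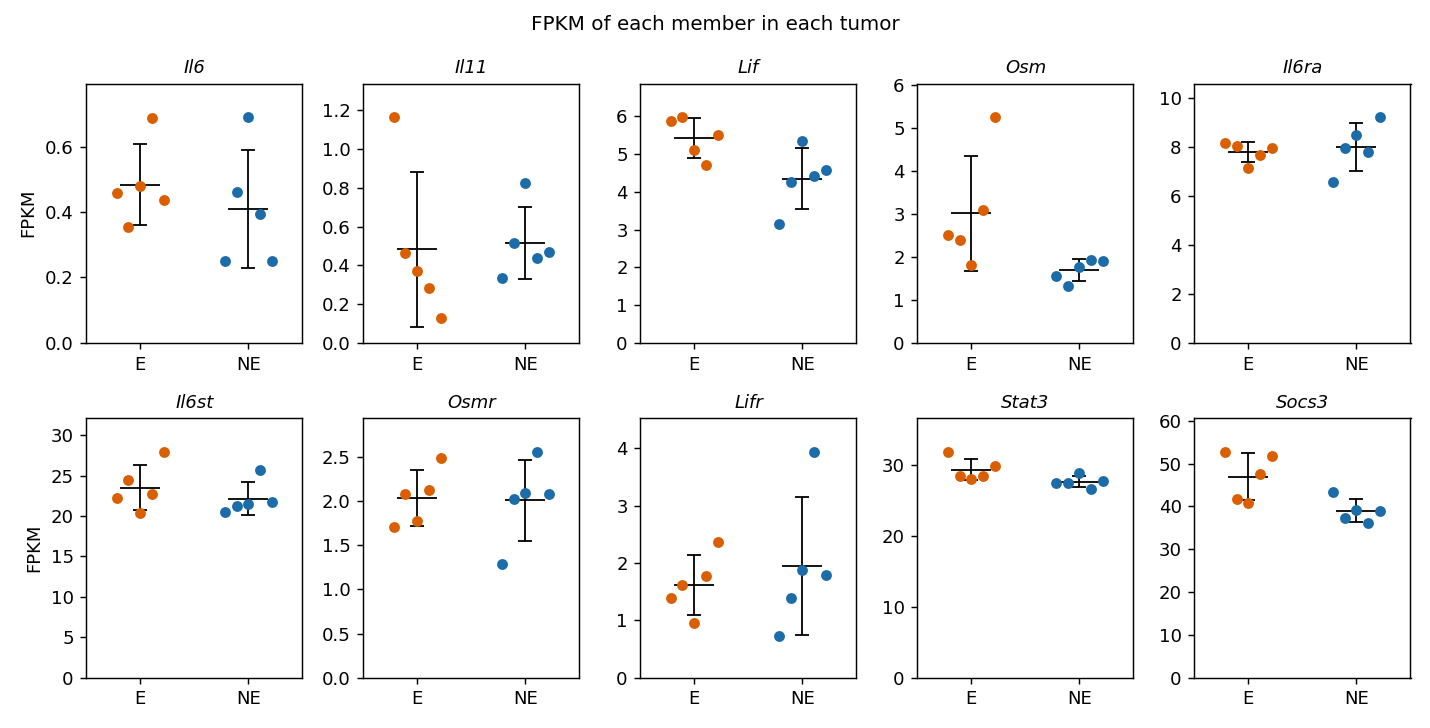
FPKM (y axes, from 0, with a scale of its own for each gene) of the 10 members in the 5 tumors of E and the 5 of NE. Each point is 1 tumor, with replicates 1 to 5 from left to right, and lines give the mean ± SD; the groups overlap for every member, and E5 stands at the top for Osm with 5.24 FPKM.

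Among the ligands, Il6, the cytokine that gives the family its name, had the lowest mean level of the members. Its level was 0.459, 0.353, 0.480, 0.688 and 0.438 FPKM in E1 to E5 and 0.250, 0.462, 0.689, 0.395 and 0.250 FPKM in NE1 to NE5. The highest tumors of the groups, E4 and NE3, were level, and the groups overlapped throughout. The values rested on 13 to 38 reads per tumor. In NE5, with 13 reads, the 95% Wilson interval was 0.355 to 1.04 CPM (counts scaled to the total of the library), and in NE3, with the most reads, it was 1.22 to 2.30, so that 2 tumors of the same group had intervals that did not meet. The mean was 0.484 ± 0.124 FPKM in E and 0.409 ± 0.182 in NE (both with SD over 5 tumors). Its log2 fold change was 0.21 ± 0.32 (SE) with a 95% interval of -0.51 to 0.93 (FDR 0.939), and it was 0.05 without E4 and 0.47 without NE3.

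Il11, which signals through its own receptor chain and Il6st, was as low as Il6. It was at 1.16, 0.464, 0.373, 0.285 and 0.128 FPKM in E1 to E5 and at 0.333, 0.514, 0.825, 0.440 and 0.472 FPKM in NE1 to NE5. E1 was the highest tumor and E5 the lowest, so that the E tumors enclosed the NE tumors. The extremes were 50 reads in E1 and 4 reads in E5, with Wilson intervals of 1.84 to 3.19 and 0.103 to 0.684 CPM that did not meet. For Il11 the log2 fold change was -0.11 ± 0.50 (SE) with a 95% interval of -1.22 to 0.99 (FDR 0.980). Without E1 it was -0.73 (unadjusted p of 0.0952), and it turned to 0.03 without E4, 0.12 without E5 and 0.11 without NE3.

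Lif, leukemia inhibitory factor, was the most abundant of the 4 ligands in every tumor, though Osm came close in E5. Its level was 5.87, 5.97, 5.10, 4.71 and 5.50 FPKM in E1 to E5, and 3.15, 4.25, 5.35, 4.42 and 4.59 FPKM in NE1 to NE5. NE1 was the lowest tumor and NE3 lay among the E tumors, while the other NE tumors lay below all of E. On CPM with the TMM factor, a scaling that corrects for library composition, E was above NE in 22 of 25 pairs of tumors. For Lif the log2 fold change was 0.28 ± 0.14 (SE) with a 95% interval of -0.02 to 0.59, and it did not pass the test (unadjusted p of 0.0623, FDR 0.897). On log2(FPKM + 1), which holds no TMM factor, the exact two-sided permutation test gave p = 0.0317 (n = 5 per group), unadjusted.

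Osm, oncostatin M, a cytokine made mainly by myeloid cells and T cells, had the largest estimate among the members. Its level was 2.52, 2.38, 1.82, 3.08 and 5.24 FPKM in E1 to E5 and 1.54, 1.32, 1.76, 1.94 and 1.91 FPKM in NE1 to NE5, from 56 to 179 reads. E5 stood far above the others, E1, E2 and E4 lay above all of NE, and E3 lay among the NE tumors. E was above NE in 23 of 25 pairs, and the means were 3.01 ± 1.33 FPKM in E and 1.70 ± 0.263 in NE (both with SD over 5 tumors). The log2 fold change was 0.78 ± 0.27 (SE) with a 95% interval of 0.19 to 1.38 (unadjusted p of 0.0146, FDR 0.897 by edgeR, exact two-sided permutation p = 0.0238). It ranked 133 among the 13517 genes by p. Without E5 it was 0.50 (unadjusted p of 0.0298), and without E3 all E tumors lay above all NE tumors.

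Markers of other cells moved with the high value of E5. The summed FPKM of 8 neutrophil markers was 22.7, 20.3, 12.4, 25.7 and 348 in E1 to E5 and 9.32, 16.6, 19.7, 40.1 and 24.7 in NE1 to NE5. S100a9 was the most abundant of them, with 2.46 to 189 FPKM, and E5 was the highest tumor for 7 of the 8 markers. The exception was Ly6g, a defining neutrophil marker, which had 1 to 8 reads per tumor and was at 0.282 FPKM in E5, below NE3 with 0.374 and NE4 with 0.324. E5 also had the highest fibroblast and macrophage or monocyte scores of the 10 tumors (8.37 and 8.13, mean log2(CPM + 1) of the marker lists), and the part of any of these cells in the level of Osm was not tested. Of the 7 neutrophil markers that passed the filter, 3 (S100a8, S100a9 and Trem1) had an unadjusted p of at most 0.05, all higher in E, where 2.57% of all genes tested did so, and 0 passed the FDR. Without E5 the log2 fold change of S100a8 turned from 2.77 to -0.30 and that of S100a9 from 2.96 to -0.15, while that of Trem1 was 0.76 (unadjusted p of 0.0139).

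The 4 receptor genes had estimates on either side of 0, and none had an unadjusted p of at most 0.05. Il6ra, which encodes the chain that binds IL-6, ranged from 7.15 to 8.16 FPKM in E and from 6.57 to 9.20 FPKM in NE. NE held both the lowest and the highest tumor, NE1 and NE5. Its log2 fold change was -0.07 ± 0.09 (SE) with a 95% interval of -0.26 to 0.12 (FDR 0.926), and it was -0.01 without NE5 and -0.13 without NE1.

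Il6st, the shared signal-transducing chain, was at 22.2, 24.4, 20.4, 22.7 and 27.9 FPKM in E1 to E5 and at 20.5, 21.2, 21.5, 25.7 and 21.8 FPKM in NE1 to NE5. One tumor of each group stood above its fellows, E5 and NE4, and the remaining tumors overlapped. For Il6st the log2 fold change was 0.05 ± 0.10 (SE) with a 95% interval of -0.16 to 0.26 (FDR 0.947), and without E5 it was -0.01.

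Osmr, the chain that pairs with Il6st to bind oncostatin M, ranged from 1.71 to 2.49 FPKM in E and from 1.29 to 2.55 in NE. Its log2 fold change of -0.02 ± 0.18 (SE, FDR 0.990) had no stable sign, as it was 0.02 with library sizes in place of TMM, 0.04 without E1, 0.02 without E3 and 0.11 without NE4. The 95% interval of -0.42 to 0.37 lay well inside a fold change of 2.

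Lifr, which binds LIF and, in mice, forms part of further receptors of the family, varied most among the receptors. Its level was 1.40, 1.61, 0.945, 1.78 and 2.37 FPKM in E1 to E5 and 0.719, 1.39, 1.87, 3.93 and 1.79 FPKM in NE1 to NE5. NE4 alone exceeded E5, and NE1 was the lowest of all. The log2 fold change was -0.32 ± 0.41 (SE, FDR 0.926), and without NE4 it was 0.15. The summed FPKM of the 12 skeletal muscle markers was 655, 1935, 144, 259 and 234 in E1 to E5 and 5.10, 436, 780, 12261 and 60.1 in NE1 to NE5. NE4 was therefore the muscle-rich tumor as well as the tumor with the most Lifr, and NE1 the lowest in both. NE4 also had the highest endothelial, T cell, epithelial and adipocyte marker scores of the 10 tumors, and NE1 the lowest neutrophil, macrophage or monocyte, fibroblast, T cell and adipocyte scores. All 12 muscle markers passed the filter, the most abundant was Acta1 with 1.07 to 4023 FPKM, and the part of muscle and of these other cells in the level of Lifr was not tested.

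Stat3, the transcription factor that carries the signal to the nucleus, was the steadiest member. It was at 31.9, 28.6, 28.1, 28.6 and 29.96 FPKM in E1 to E5 and at 27.6, 27.6, 29.0, 26.7 and 27.8 FPKM in NE1 to NE5, a coefficient of variation of 5.13% over the 10 tumors. E1 was the highest and NE4 the lowest, and NE3 lay among the E tumors. Its log2 fold change was 0.05 ± 0.05 (SE) with a 95% interval of -0.05 to 0.16 (FDR 0.897), which bounds the difference in transcript level to a small one, and it was 0.03 without E1. On log2(FPKM + 1) without the TMM factor the exact two-sided permutation test gave p = 0.0476 (n = 5 per group), unadjusted. Stat3 overlaps Stat5a on the opposite strand by 72 bases in the table's annotation. Reads of that stretch cannot be told apart unless strand was used, which is not given in the sources used here.

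Socs3, the feedback inhibitor, was the most abundant member. Its level was 52.7, 41.7, 40.9, 47.6 and 51.8 FPKM in E1 to E5 and 43.3, 37.4, 39.2, 36.2 and 38.8 FPKM in NE1 to NE5, from 2023 to 3144 reads. E1, E4 and E5 lay above all of NE, while NE1 lay above E2 and E3. E was above NE in 23 of 25 pairs, and the means were 46.9 ± 5.49 FPKM in E and 39.0 ± 2.70 in NE (both with SD over 5 tumors). The log2 fold change was 0.24 ± 0.08 (SE) with a 95% interval of 0.07 to 0.41, that is 1.18-fold (unadjusted p of 0.0113, FDR 0.897 by edgeR, exact two-sided permutation p = 0.0238). Over the fits that each left out 1 tumor it was 0.20 to 0.28, with the lowest value without E1, and without NE1 all E tumors lay above all NE tumors. Without both E5 and NE4 it was 0.19 (unadjusted p of 0.0647). It ranked 102 by p among the genes tested.

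**Figure D2:**
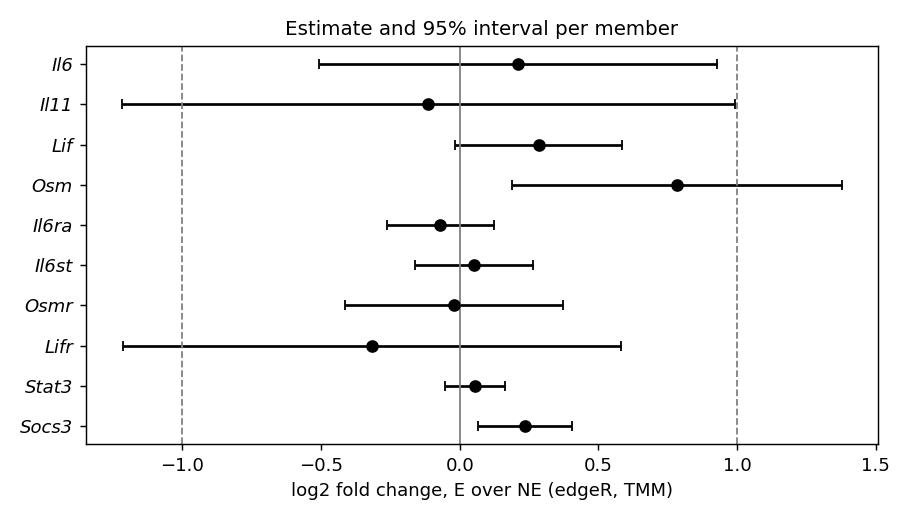
Log2 fold change of E over NE (x axis, edgeR with TMM) for the 10 members (y axis), with points for the estimates, bars for 95% intervals and dashed lines at a fold change of 2. The intervals of Osm (0.19 to 1.38) and Socs3 (0.07 to 0.41) lie above 0 before adjustment over the genes tested, and those of the other 8 members include 0.

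On the FPKM scale, the mean levels over 10 tumors were ordered as Socs3 (43.0), Stat3 (28.6), Il6st (22.8), Il6ra (7.90), Lif (4.89), Osm (2.35), Osmr (2.02), Lifr (1.78), Il11 (0.500) and Il6 (0.446). Each of the first 5 genes was above the next in all 10 tumors, as was Lifr above Il11. Osm was above Osmr in 6 of 10 tumors, which were E1 to E5 and NE1. Il11 was above Il6 in 7, which were E1, E2 and NE1 to NE5. In both comparisons the ranges of the 2 genes overlapped, and the order was split by group and was not tested. Osmr was above Lifr in 9 of 10 tumors, all but NE4, although the ranges of the 2 genes overlapped. Over the whole table, 4.84% of genes had a higher mean FPKM than Socs3, 8.38% a higher one than Stat3 and 56.6% a higher one than Il6. Socs3, Stat3 and Il6st thus stood above all 4 ligands per length. The highest tumor exceeded the lowest 9.11-fold for Il11, 5.47-fold for Lifr and 3.97-fold for Osm, but 1.19-fold for Stat3.

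A list of 64 other genes of the pathway was read from the same fit, and 57 of them were tested. None passed the FDR (edgeR), 4 had an unadjusted p of at most 0.05 with higher values in E (DESeq2 gave 5), and 0 had lower values at this p. Over all genes tested these shares were 2.57% and 2.29%. The median log2 fold change was 0.04 over the 57 genes. The 4 genes were Fos, Junb and Il1rn among 23 STAT3 targets and Pias3 among 7 other inhibitors.

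Fos, an AP-1 transcription factor of the immediate early response, was at 26.5, 15.2, 20.9, 17.6 and 26.5 FPKM in E1 to E5 and at 12.8, 14.9, 16.3, 13.2 and 14.4 FPKM in NE1 to NE5. All E tumors but E2 lay above all of NE, and the log2 fold change was 0.55 ± 0.16 (SE, unadjusted p of 0.00530, FDR 0.897). Junb, its AP-1 partner, was at 56.8, 49.5, 54.3, 57.5 and 56.2 FPKM in E1 to E5 and at 51.7, 42.1, 46.0, 39.7 and 46.7 FPKM in NE1 to NE5. Only NE1 reached into the range of E, above E2. The log2 fold change of Junb was 0.25 ± 0.07 (SE, unadjusted p of 0.00370, FDR 0.897), and both genes kept an unadjusted p of at most 0.05 in each of the 10 fits that left out 1 tumor.

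Il1rn, which encodes the IL-1 receptor antagonist, had a mean of 21.7 ± 11.5 FPKM in E and 13.7 ± 2.41 in NE (both with SD over 5 tumors). E5 alone, with 42.3 FPKM, stood apart, and the log2 fold change of 0.63 (unadjusted p of 0.0452) was 0.25 without it (unadjusted p of 0.0698). Il1rn kept an unadjusted p of at most 0.05 in 5 of the 10 fits without 1 tumor. Pias3, an inhibitor of DNA binding by STAT3, had a mean of 14.1 ± 0.891 FPKM in E and 11.3 ± 2.22 in NE (both with SD over 5 tumors). NE1, with 15.02 FPKM, was level with the highest E tumor, and the log2 fold change was 0.29 ± 0.11 (SE, unadjusted p of 0.0207, FDR 0.897), with an unadjusted p of at most 0.05 in 9 of the 10 fits without 1 tumor.

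The most abundant STAT3 target was the survival gene Mcl1 with a mean of 155 FPKM, and the lowest was Lrg1 with 0.848. Among 8 other ligands, Clcf1 led with 6.65 FPKM, the lowest with reads was Ctf2 with 0.117, and Il31 had 0 reads in every tumor, which allows up to 3 reads per library. Of 5 other receptors, Il11ra1, the receptor chain for IL-11, had 5.87 FPKM, and Il11ra2 had 0.0154. Both proteases that shed the IL-6 receptor from cells were well expressed, Adam10 with 44.5 FPKM and Adam17 with 33.0.

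Grb2 was the highest of 7 kinases and adaptors with a mean of 58.9 FPKM and Tyk2 the lowest with 8.52. Among 7 other inhibitors the range ran from Socs2 with 0.784 to the phosphatase gene Ptpn6 with 31.7 FPKM. Of 6 other STAT genes, Stat6 had the highest mean with 40.3 FPKM and Stat4 the lowest with 0.911. Among 6 inducers of the family, Il1b led with 27.0 FPKM, Il1a was the lowest with reads with 0.858, and Il17a had 0 reads in every tumor. No gene of these roles other than Pias3 had an unadjusted p of at most 0.05, and the median log2 fold change of the 5 inducers tested was 0.24. The largest estimates were those of Il1a (0.95) and Il1b (0.93), for which E5 was the highest tumor with 3.57 and 82.5 FPKM. E5 was also the highest for Ptgs2, and E1 for Tnf and Tgfb1.

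Beside Il6, 13 other myokine genes were read, of which 11 were tested. None passed the FDR (edgeR), and Fstl1 and Sparc had an unadjusted p of at most 0.05, both with higher values in E, as did 2.57% of all genes tested. Fstl1 had a mean of 153 ± 33.7 FPKM in E and 115 ± 9.49 in NE (both with SD over 5 tumors), with a log2 fold change of 0.38, or 0.24 without E5. Sparc, a matrix protein gene and the most abundant of the list with 648 FPKM, had a log2 fold change of 0.27, or 0.13 without E5, and its unadjusted p was at most 0.05 in 4 of the 10 fits without 1 tumor, against 10 for Fstl1. The lowest was Ostn with 0.0317 FPKM.

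Across the 10 tumors, Socs3 was set beside the other 9 members on log2(CPM + 1). On this scale none of the 9 relations passed the adjustment over them, and the strongest were those with Osm and Stat3. On log2(FPKM + 1), without the TMM factor, these 2 relations passed by Pearson's r and none by Spearman's rho, so that the call depends on the scale. With Osm, Pearson's r was 0.75 (permutation test, p = 0.00981, adjusted p = 0.0883) and Spearman's rho 0.66 (permutation p = 0.0431, adjusted p = 0.388). Without E4 and E5, the tumors farthest from the median of Osm, r was 0.56. After centring on the group means r was 0.53. On log2(FPKM + 1), r was 0.75 (permutation test, p = 0.00822, adjusted p = 0.0370).

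With Stat3, Socs3 had a Pearson's r of 0.67 (permutation test, p = 0.0249, adjusted p = 0.112) and a Spearman's rho of 0.49 (permutation p = 0.155, adjusted p = 0.475). Without E1 and NE1, r was 0.60, and without E1 alone it was 0.39. On log2(FPKM + 1), r was 0.83 (permutation test, p = 0.0015, adjusted p = 0.0135) and 0.68 without E1 and NE4, and rho was 0.71 (permutation p = 0.0269, adjusted p = 0.242). Centred on the group means, r was 0.54 on log2(CPM + 1) and 0.71 on log2(FPKM + 1). On log2(CPM + 1), Socs3 with Il6 gave an r of 0.15, with Il11 -0.07 and with Lif 0.29. Without E1 and E5 the r with Il11 was -0.68, and without E2 and NE1 that with Lif was 0.66. Without NE1 and NE3 the r with Il6 was 0.38. Centred on the group means, r was -0.06 with Il6, 0.08 with Il11 and -0.25 with Lif.

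The members were also set beside 8 marker scores, each the mean log2(CPM + 1) of a marker list, which makes 80 relations. No score passed a p of 0.05 between E and NE, with an exact two-sided permutation p of 0.0873 for the epithelial score and 0.325 or more for the other 7 scores. Of the 80 relations, 2 had an adjusted p of at most 0.05, and both were those of Il6st. With the fibroblast score, Il6st had a Pearson's r of 0.87 (permutation test, p = 8e-05, adjusted p = 0.0064) and a Spearman's rho of 0.95 (permutation p = 0.00014, adjusted p = 0.0112). With the neutrophil score its r was 0.80 (permutation test, p = 0.00018, adjusted p = 0.0072) and its rho 0.93 (permutation p = 0.00038, adjusted p = 0.0152).

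The summed FPKM of the 9 fibroblast markers was 373, 487, 264, 607 and 1824 in E1 to E5 and 127, 263, 294, 572 and 500.3 in NE1 to NE5, led by Col3a1. E5 was the richest and NE1 the poorest tumor, and without both the r of Il6st was 0.80 with the fibroblast score and 0.73 with the neutrophil score. Centred on the group means, r was 0.87 and 0.79. The relation thus ran along differences between tumors within each group rather than between E and NE. Osm had an r of 0.88 with the neutrophil score (permutation test, p = 0.00385, adjusted p = 0.0513), which was 0.52 without E5 and NE1 and 0.94 when centred on the group means, and a rho of 0.81 (permutation p = 0.00713, adjusted p = 0.0726). With the fibroblast score Osm had an r of 0.80 (permutation test, p = 0.00791, adjusted p = 0.0791), or 0.57 without E5 and NE1, and a rho of 0.83 (permutation p = 0.00481, adjusted p = 0.0726).

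The adjusted p was also 0.0513 for 3 relations of the receptors Osmr and Lifr. Osmr had an r of 0.87 with the fibroblast score (permutation test, p = 0.0029) and 0.86 with the macrophage or monocyte score (permutation test, p = 0.00359), which were 0.73 and 0.52 without E5 and NE1. On log2(FPKM + 1), Osmr with the fibroblast score passed (r of 0.88, permutation test, p = 0.00184, adjusted p = 0.0491), as did the 2 relations of Il6st. By Spearman's rho on that scale 9 of the 80 relations had an adjusted p of at most 0.05, those of Il6st, Osmr and Lifr with the neutrophil and fibroblast scores, Osm with the fibroblast score, Lifr with the T cell score and, with a rho of -0.87, Il11 with the endothelial score. Lifr had an r of 0.87 with the T cell score (permutation test, p = 0.00281), or 0.55 without NE1 and NE4. With the macrophage or monocyte score its r was 0.82 (permutation test, p = 0.00519, adjusted p = 0.0593) and with the fibroblast score 0.80 (permutation test, p = 0.0111, adjusted p = 0.0888), or 0.80 and 0.78 without E5 and NE1. With the skeletal muscle score the r of Lifr was 0.77 (permutation test, p = 0.0155, adjusted p = 0.103), and without NE1 and NE4 it was 0.01.

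**Figure D3:**
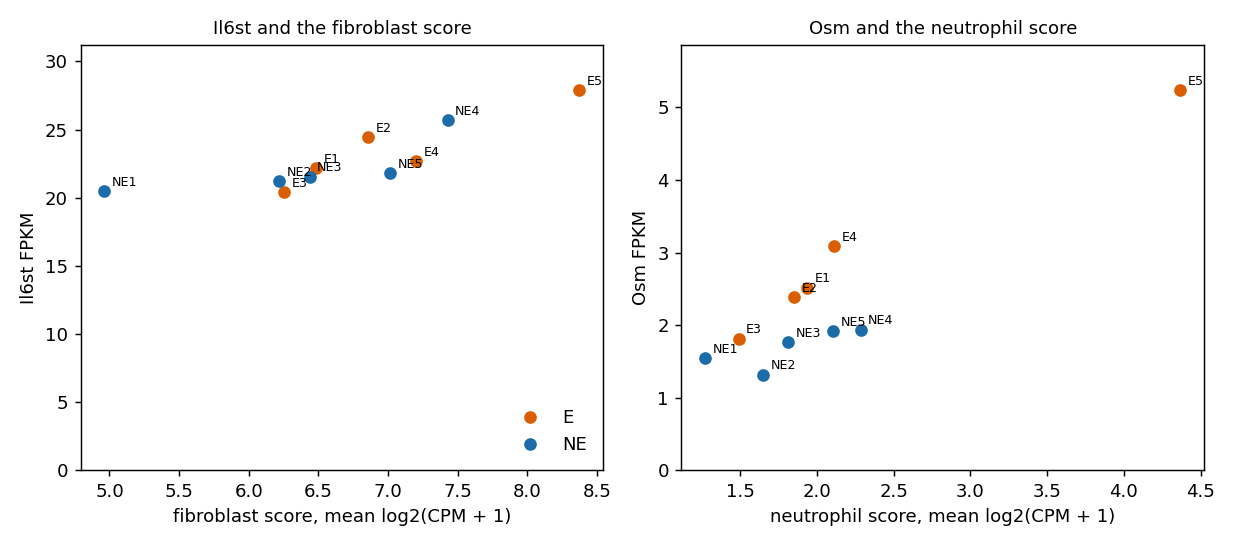
Il6st FPKM against the fibroblast score (left) and Osm FPKM against the neutrophil score (right), where each score is a mean log2(CPM + 1) and each labelled point is 1 tumor of E or NE. Il6st is at 20.5 FPKM in NE1, the tumor with the lowest fibroblast score, and at 27.9 in E5, the one with the highest, whereas for Osm the point of E5, at a score of 4.37, lies apart from the other 9 tumors.

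For the cytokine genes, Socs3 and Stat3, the tested genes with the most similar profile over the 10 tumors were listed by Pearson's r of log2(CPM + 1) among 13507 genes, as a description. Socs3 was most like Cdc42se1 (0.92), Tmed1 (0.91) and Sgpl1 (0.89), and Stat3 most like Ptk2b (0.94), Ercc8 (0.89) and Slc39a4 (0.89). Osm was most like Col24a1 (0.96), Loxl1 (0.96) and Tbc1d2b (0.94), and Lif most like Ehd4 (0.91), Crip1 (0.90) and Mefv (0.90). Il6 was most like Ptrhd1 (0.92), Txk (0.91) and Cdc14a (0.91), and Il11 most like Tmem177 (0.94), Psmb9 (0.91) and Apol6 (0.90). These values are the highest of many, and for Il6 and Il11 they follow few reads.

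Osm and Lif, and likewise Osmr and Lifr, lie close together in the genome. In the coordinates of the table, whose build is not given in the sources used here, Osm (ENSMUSG00000058755) lies on chromosome 11 from 4186420 to 4191026 and Lif from 4207557 to 4222514, both on the forward strand. A gap of 16530 bp separates the 2 cytokine genes, with 0 listed genes between them. Stat3 (ENSMUSG00000004040, 100775924 to 100830366) and Socs3 (ENSMUSG00000053113, 117856905 to 117860873) lie on the reverse strand of the same chromosome. Stat3 and Socs3 are 17026538 bp apart, with 289 listed genes between them. Osmr and Lifr are neighbors on chromosome 15 in opposite orientation, 215644 bp apart with 0 listed genes between them. Osm and Lif had estimates on the same side of 0, and Osmr and Lifr shared low levels of 2.02 and 1.78 FPKM.

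RefSeq promoter windows (GRCm38.p6, 250 bases before to 50 after a start) were found for 9 of the 10 members, 11 windows in all. They were searched for the STAT motif TTCNNNGAA and the AP-1 motif TGANTCA, each of which reads the same on both strands. The STAT motif was present in 8.30% of all 32851 windows and the AP-1 motif in 7.81%. Among the members, the STAT motif was found in 1, Socs3, and the AP-1 motif in 4, Il6, Il11, Lif and Osmr. The AP-1 matches of Il6 and Il11 lie 249 and 98 bases before the start and are not printed. A link of AP-1 to any member was not tested. The stretch of Socs3 is shown because STAT3 is known to induce Socs3. That of Lif is shown as an example of an AP-1 match, since the AP-1 genes Fos and Junb had the smallest p of the pathway list. Each is printed 5′ to 3′ on the strand of the gene, with the match in capitals, up to the first GENCODE exon within the window.

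Socs3, chr11:117969452-117969616, reverse strand, GRCm38.p6, STAT match 154 bases before the start: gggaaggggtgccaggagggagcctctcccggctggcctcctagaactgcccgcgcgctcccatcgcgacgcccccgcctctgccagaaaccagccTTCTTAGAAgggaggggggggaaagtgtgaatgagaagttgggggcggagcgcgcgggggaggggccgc

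Lif, chr11:4257318-4257556, forward strand, GRCm38.p6, AP-1 match 228 bases before the start: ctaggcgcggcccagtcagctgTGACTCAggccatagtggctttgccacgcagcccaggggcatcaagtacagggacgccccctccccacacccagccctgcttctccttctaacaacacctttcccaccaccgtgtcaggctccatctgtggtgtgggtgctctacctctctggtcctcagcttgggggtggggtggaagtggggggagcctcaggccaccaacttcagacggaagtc

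The Socs3 stretch lies before the RefSeq start used and within an intron of a longer annotated transcript, and no annotated transcript overlaps the Lif stretch. A match is a description of these letters only, and binding of a factor was not analysed here.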

How the data were processed

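Per the paper's methods, reads of paired-end libraries were mapped by Hisat2 2.0, and Stringtie 1.3.0 then gave expression values. The authors deposited raw read counts per gene, which were not normalized. The authors also deposited FPKM, which scale each count by gene length and total count and hold no TMM factor. The methods name a rat assembly, whereas the table carries mouse Ensembl identifiers, and the strand setting and build of the table are not given in the sources used here.

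Counts of all 10 tumors were fitted with edgeR 4.0.16 in R 4.3.3 (filterByExpr, TMM, quasi-likelihood test, Benjamini-Hochberg over 13517 genes), tested on simulated data. A call needed an FDR no higher than 0.05 and a fold change of 2 or more. Positive log2 fold changes mean higher in E. Exact permutation tests used all 252 assignments of the tumors, with a smallest p of 0.00794. They ran on log2(FPKM + 1) for genes, on the total count for depth and on the score for marker lists. Correlations used 100000 permutations on log2(CPM + 1) with the TMM factor (scipy 1.17.1, Python 3.11.15). Alternatives were DESeq2 1.42.0, limma-trend 3.58.1 on FPKM, other filters and scalings, the replicate number as a block and leaving out tumors.

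Groups and replicate numbers came from the sample labels. The members, the lists of pathway, myokine and marker genes and the tests were chosen with earlier results of these data known. Named genes are the members, in each pathway role and among the myokines the highest and lowest by mean FPKM and those with an unadjusted p of at most 0.05, the most abundant markers, and the 3 genes most like a member. Epithelial markers other than the top one and Ly6g, S100a8 and Trem1 were named after their values were seen. Wilson intervals cover counting error only, and PCR copies were counted as reads.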

Additional observations from a re-analysis of the deposited data

Results flagged for a closer look

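A value was listed here when the gap between a group's highest or lowest tumor and its nearest neighbor exceeded Dixon's 95% limit for the range of the group. Of 38 groups of 5 tumors examined (10 members and 8 marker scores, with the total count, in both groups), 4 did so, where chance gives about 1 in 20, or 1.9. Il6st stood apart in NE4 with 25.67 FPKM, above the other NE tumors. The neutrophil score of E5 was 4.368, above the other E tumors. The macrophage or monocyte score of NE1 was 6.315, below the other NE tumors, and the adipocyte score of NE4 was 3.152, above them. NE4 and E5 are also the tumors with the highest summed FPKM of muscle and of fibroblast markers, respectively, and what set them apart was not tested.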

How the results depend on the processing

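Of the 10 log2 fold changes, those of Il6, Lif, Osm, Il6ra, Stat3 and Socs3 kept their sign in every alternative run, and no member was called in any. Osm ranged from 0.50 to 0.92, Lif from 0.19 to 0.36, Il6 from 0.05 to 0.47, Il6ra from -0.13 to -0.01 and Stat3 from 0.03 to 0.07 over the fits that each left out 1 tumor. The sign of Osmr turned with library size without TMM (0.0185), limma-trend on log2(FPKM + 1) (0.0213) or log2(FPKM + 0.1) (0.0370), and without both E5 and NE4 (0.0236), an alternative added after seeing the data in which Il11 was 0.0807 and Socs3 no longer had an unadjusted p of at most 0.05. Lifr was -0.0268 without both E5 and NE4. Over the fits without 1 tumor, Osmr ranged from -0.14 to 0.11 and Il11 from -0.73 to 0.12. In the same fits Lifr ranged from -0.52 to 0.15 and Il6st from -0.0140 to 0.129. Between 1 and 3 members had an unadjusted p of at most 0.05 over all settings. With the unadjusted p in place of the FDR, 56 genes had a fold change of 2 or more. The pathway genes at an unadjusted p of at most 0.05 numbered 3 to 7 (7 without E3) and the members without overlap 0 to 1 over the fits without 1 tumor (Osm without E3, Socs3 without NE1). The correlation of Socs3 with Osm was 0.53 and with Stat3 0.54 after centring on the group means, and over the fits without 1 tumor they ranged from 0.66 to 0.86 and from 0.39 to 0.75. With all relations on log2(FPKM + 1), an alternative added after seeing the data, 2 of the 9 relations of Socs3 had an adjusted p of at most 0.05 in place of 0, and 3 of the 80 marker score relations in place of 2; by Spearman's rho the counts were 0 in place of 0 and 9 in place of 2. The cause of these shifts was not tested.

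With the replicate number as a replicate block, Osmr was 0.00719, Osm 0.71 and Socs3 0.23, and 0 genes were called, as without it. The block moved Il11 from -0.11 to -0.37 and Lifr from -0.32 to -0.15. The deviations of tumors with the same number correlated at 0.04, -0.16, -0.09, -0.33 and 0.32, and 1 of the 10 tumors (E5) correlated best with its own number in the other group. The study describes the sequenced tumors as matched pairs, but whether equal numbers mark those pairs is not given in the sources used here, so that the block was kept as an alternative. With 5 tumors a group and 4 to 50 reads for Il11 and 13 to 38 for Il6, the 95% intervals of these 2 genes hold differences in either direction. The transcripts were measured in bulk tissue at 1 time, and neither protein nor phosphorylation was analysed here.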
